A study of Homo sapiens with 2 samples.

Results

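The spindle assembly checkpoint was examined in PC3 cells after SUB1 knockdown through 10 of its genes: BUB1, TTK, BUB1B, MAD2L1, BUB3, MAD1L1, ZWINT, ZW10, KNTC1 and MAD2L1BP. Every gene probe on the array that carries one of these symbols or an older alias was included. The 10 genes had 13 probes and all 10 were among the 19218 genes kept after the filter on dim probes. BUB3 had 4 probes and each of the others had 1. All 13 probes were well above background in both channels on both arrays.

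PC3 is an established prostate cancer cell line derived from a metastasis. Cells were transfected with SUB1 siRNA 1, with SUB1 siRNA 2 or with non-targeting (Non-T) siRNA, transfected again after 24 h and harvested 72 h after the first transfection. RNA was hybridised to 2 two-colour Agilent whole human genome arrays, 1 for each SUB1 siRNA, with Non-T siRNA RNA in Cy3 and SUB1 siRNA RNA in Cy5. The dyes were not swapped, which means that dye bias and knockdown cannot be told apart for any single probe, and no siRNA has a replicate array. The sources used here do not say if a single Non-T extract went onto both arrays. Because the arrays share the kind of control, their values are given side by side.

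Median signals of gene spots were 128 (Cy3) and 116 (Cy5) for siRNA 1 and 114 and 105 for siRNA 2. The target itself, SUB1, stood at a log2 ratio of -3.30 (siRNA 1) and -3.26 (siRNA 2) with the brightest of its 4 probes, and at -1.81 and -1.57 with the dimmest, which was the weakest of the 4. In the Non-T channel all 6 prostate epithelial markers tested were well above background. Of other cell types, 2 of 3 leukocyte, 1 of 3 endothelial and 1 of 3 fibroblast markers were well above background, whereas PTPRC, CDH5, VWF, COL3A1 and PDGFRB were not. The brightest probe of each of these 9 genes had a signal between 84.0 and 384.

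The checkpoint holds back anaphase until every chromosome is attached to the spindle. At an unattached kinetochore the kinase TTK (MPS1) phosphorylates the outer kinetochore and thereby recruits BUB1 and BUB3. The RZZ complex and ZWINT keep checkpoint proteins in place there, and MAD1L1 converts MAD2L1 to its active form. MAD2L1, BUB1B (BUBR1) and BUB3 then bind CDC20 as the mitotic checkpoint complex, which inhibits the anaphase-promoting complex. MAD2L1BP (p31comet) takes MAD2L1 out of that complex when the checkpoint is switched off. Transcription of many genes of this pathway peaks in G2 and mitosis, through promoters with a cell cycle genes homology region (CHR), often beside CCAAT boxes.

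The promoters are shown first, because SUB1 is a transcriptional coactivator and the study tested binding of SUB1 at the BUB1B promoter. That test used benign RWPE prostate cells stably overexpressing SUB1 or lacZ, and not PC3 cells with SUB1 knockdown. RefSeq windows on GRCh38.p14, from 250 bases before to 50 bases after the transcript start, were at hand for 7 of the 10 genes (9 windows, since MAD2L1BP and ZWINT have an alternative start each). The genes without a window were BUB3, TTK and KNTC1. Both strands were searched for the CHR letters TTTGAA and TTTAAA, for CCAAT, and for the E2F letters TTTCCCGC, TTTCGCGC, TTTGCCGC and TTTGGCGC. TTTGAA stood in windows of 5 of the 7 genes (BUB1B, MAD2L1, ZWINT, ZW10 and MAD2L1BP), against 15.2% of all 35116 windows. CCAAT stood in those of 4 genes (BUB1, MAD2L1, ZWINT and ZW10), against 34.6% of all windows. TTTAAA, present in 12.2% of all windows, and the E2F letters, present in 3.31%, were in none of them. A match of this kind describes the letters of a window and is not a binding site. The counts are of genes with a match in any of their windows, whereas the shares are of single windows, so they are not like for like. MAD2L1BP had TTTGAA only in the more downstream of its windows. With 7 genes, these counts and shares are descriptions only.

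The 4 promoters printed were picked because their genes were at least 2-fold lower with SUB1 siRNA 2. The other genes with TTTGAA, ZW10 and MAD2L1BP, had the ratios nearest to 0 with that siRNA (-0.15 and -0.047). Each is written 5′ to 3′ on the strand of its gene, with TTTGAA (or its reverse complement) in capitals for BUB1B, MAD2L1 and ZWINT, and CCAAT (or its reverse complement) in capitals for BUB1. The BUB1B stretch is chr15:40160819-40161068 (plus strand), which ends at the base before the transcript start, and its TTTGAA begins 23 bases before the start. The MAD2L1 stretch is chr4:120066807-120066836 (minus strand), and its TTTGAA begins at base 25 after the start. The ZWINT stretch is chr10:56361260-56361320 (minus strand), with the reverse complement of TTTGAA beginning 31 bases before the more downstream of its starts. The same match begins 17 bases before the more upstream start, and the stretch runs past that start. The BUB1 stretch is chr2:110678083-110678172 (minus strand), where CCAAT occurs on both strands, 79 and 54 bases before the start.

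BUB1B: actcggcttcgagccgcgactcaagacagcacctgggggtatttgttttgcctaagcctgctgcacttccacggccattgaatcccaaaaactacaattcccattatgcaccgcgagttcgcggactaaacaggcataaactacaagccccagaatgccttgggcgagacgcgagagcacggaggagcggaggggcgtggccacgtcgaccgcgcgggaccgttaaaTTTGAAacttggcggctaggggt

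MAD2L1: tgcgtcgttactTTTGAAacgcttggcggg

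ZWINT: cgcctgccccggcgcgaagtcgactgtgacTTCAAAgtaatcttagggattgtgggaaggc

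BUB1: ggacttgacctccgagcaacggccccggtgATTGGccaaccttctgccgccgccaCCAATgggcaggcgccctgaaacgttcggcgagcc

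The primers that the study designed for chromatin immunoprecipitation at its first BUB1B site both match the BUB1B window. They enclose 111 bases, chr15:40160892-40161002, from 177 to 67 bases before the transcript start, so that the amplicon lies upstream of the TTTGAA. The primers of the second site do not both lie in the window. No binding was measured on these arrays.

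BUB1B site 1 forward primer: GCCATTGAATCCCAAAAACT

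BUB1B site 1 reverse primer: CTCCGTGCTCTCGCGTCT

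**Figure D1:**
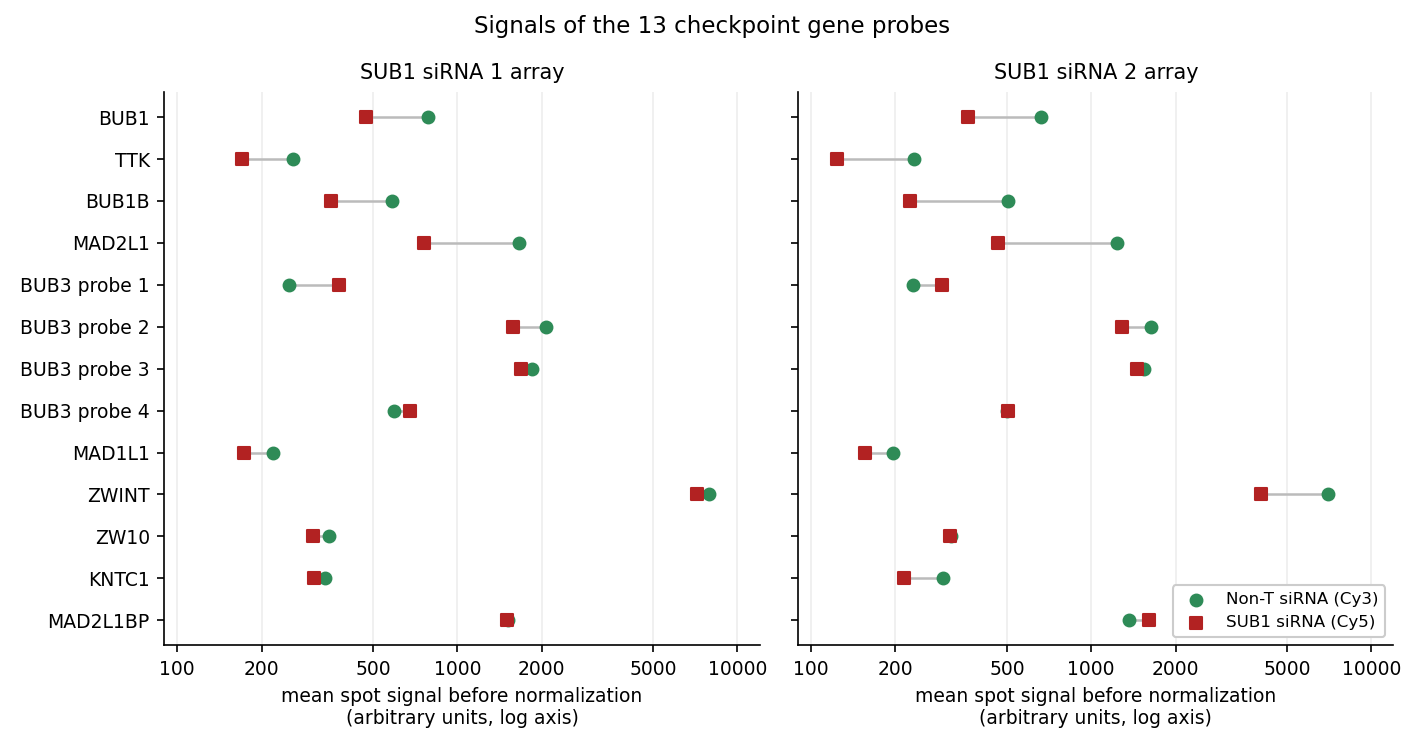
Mean spot signal before normalization (arbitrary units, log axis) of each checkpoint gene probe, in Cy3 (Non-T siRNA, green circles) and Cy5 (SUB1 siRNA, red squares), on the SUB1 siRNA 1 array (left) and the SUB1 siRNA 2 array (right). Cy5 lies below Cy3 on both arrays for BUB1, TTK, BUB1B and MAD2L1, for which the signals on the siRNA 2 array are 662 and 365, 234 and 123, 503 and 226, and 1232 and 463. BUB3 probes are numbered in order along the gene, and signals of different probes are not comparable.

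Both checkpoint kinases had lower signals after SUB1 knockdown, and with siRNA 2 both passed 2-fold, though not under every way of processing. BUB1 is the kinase that marks centromeric chromatin and gathers checkpoint proteins at the kinetochore. Its probe (NM_004336, chr2:111112171-111113812 in hg18, minus strand) had a signal of 786 in Non-T siRNA and 473 in SUB1 siRNA 1 cells on the first array, and of 662 and 365 on the second. After normalization BUB1 stood at a log2 ratio of -0.97 (51.1% of the Non-T level left) for siRNA 1 and -1.07 (47.6% left) for siRNA 2. The technical SD, which is the spread among spots of one probe at a similar intensity, was 0.076 and 0.067. The siRNAs differed by -0.10, about the technical SD of that difference (0.10), and BUB1 stood within 1 technical SD of the 2-fold line with siRNA 1. With siRNA 2 BUB1 came to -0.88 with median centring in place of loess, and with siRNA 1 to -1.11 with Feature Extraction's processed signals.

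TTK starts checkpoint signalling. Its probe (NM_003318, chr6:80806149-80806208 in hg18, plus strand) gave 259 in Cy3 against 170 in Cy5 for siRNA 1, and 234 against 123 for siRNA 2. Its log2 ratio of -0.65 (63.6% left) with siRNA 1 was accompanied by -1.04 (48.5% left) with siRNA 2, at technical SDs of 0.095 and 0.087. The value with siRNA 2 was lower by 0.39, more than the technical SD of the difference (0.13). The Cy5 signal of 123 with siRNA 2 stood against a local background of 56. TTK with siRNA 2 stayed past 2-fold in 2 of the 6 other ways of processing that changed its value, and came to -0.93 at the weakest.

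Of the proteins that form the mitotic checkpoint complex, MAD2L1 and BUB1B had the largest decreases and BUB3 had probes that disagreed. MAD2L1 is the protein that binds and holds CDC20. Its probe (NM_002358, chr4:121200794-121200853 in hg18, minus strand) had signals of 1655 in Non-T siRNA and 758 in SUB1 siRNA 1 cells, and of 1232 and 463 on the siRNA 2 array. MAD2L1 fell 2.64-fold with siRNA 1 (log2 ratio -1.40, technical SD 0.073) and 3.17-fold with siRNA 2 (-1.67, technical SD 0.070). Counted from the most negative ratio, MAD2L1 was number 33 of the 19218 genes with siRNA 1 and number 25 with siRNA 2. None of the other checkpoint genes of the 10 passed 2-fold with both. Whether fewer cells were in mitosis or each cell held less of the RNA cannot be told apart in RNA from whole cultures.

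BUB1B encodes BUBR1, the subunit that blocks substrate binding of the anaphase-promoting complex. Its probe (NM_001211, chr15:38300120-38300179 in hg18, plus strand) had signals of 586 and 354 with siRNA 1 and 503 and 226 with siRNA 2, Cy3 first. These gave log2 ratios of -0.94 (52.3% left) and -1.34 (39.6% left) in that order. The technical SDs were 0.081 and 0.070, and the difference between the siRNAs of -0.40 exceeded its technical SD of 0.11.

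BUB3 carries BUB1 and BUB1B to the kinetochore. Its 4 probes, all on the plus strand of chromosome 10, are numbered here from the most upstream in hg18. Probes 2 and 3 were equally bright to 2 decimals (mean log2 intensity 10.66 each), and probe 3, ahead by a negligible margin, stands for the gene. With probe 2 in its place, a choice made after seeing the data, the median of the 10 genes with siRNA 1 was -0.58. Probe 3 (NM_001007793, chr10:124912295-124914572) had signals of 1841 and 1683 with siRNA 1 and of 1546 and 1453 with siRNA 2. Its log2 ratio was -0.41 and -0.38. Probe 2 (NM_001007793, chr10:124907252-124907311) had signals of 2082 and 1585 with siRNA 1 and of 1633 and 1288 with siRNA 2, and log2 ratios of -0.69 and -0.63. Probe 4 (NM_004725, chr10:124914167-124914226) had -0.026 and -0.19, of which the first is within the technical SD of 0.076. Probe 1 (AK226060, chr10:124903602-124903661) had 0.47 and 0.24, on the other side of 0, and Cy5 (378) above Cy3 (251) with siRNA 1. The probes kept the same order on both arrays. No probe of BUB3 was 2-fold changed in either direction. The coordinates of probe 4 lie within the span given for probe 3, and their ratios differed by more than the technical SD on both arrays.

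MAD1L1, which tethers MAD2L1 at the kinetochore and templates its conversion, had close values with both siRNAs. Its probe (NM_003550, chr7:1904455-1904514 in hg18, minus strand) had signals of 220 and 173 with siRNA 1 and 196 and 156 with siRNA 2. Log2 ratios were -0.37 and -0.38, with technical SDs of 0.097 and 0.085. About 77.2% and 76.6% of the Non-T level was left, and neither value reached 2-fold.

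**Figure D2:**
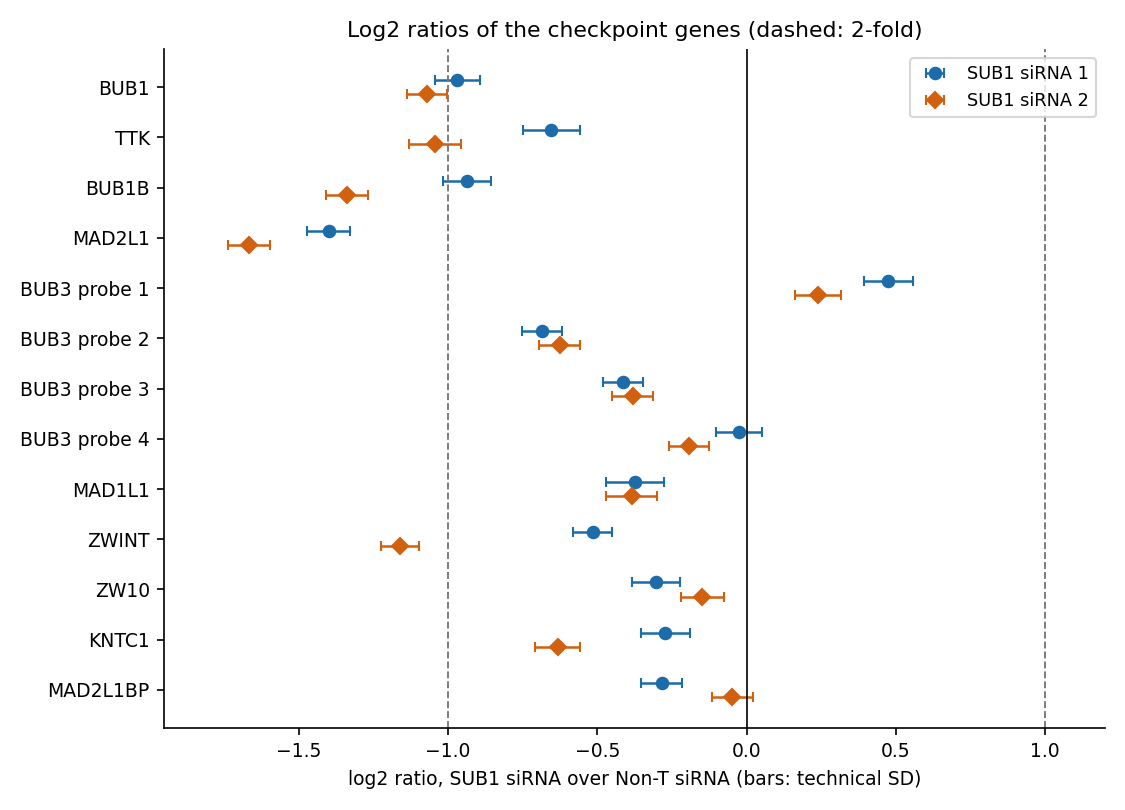
Log2 ratio (SUB1 siRNA to Non-T siRNA) for each checkpoint gene probe, with siRNA 1 (blue circles) and siRNA 2 (orange diamonds). Bars are the technical SD among spots within an array, not a spread between cultures, and dashed lines mark a 2-fold change. MAD2L1 lies beyond the lower line with both siRNAs, at -1.40 and -1.67, whereas BUB3 probe 1 is the only probe above 0, at 0.47 and 0.24.

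Among the genes of the outer kinetochore, ZWINT was past 2-fold lower with siRNA 2 and not with siRNA 1, and KNTC1 had the same order of values without reaching 2-fold. ZWINT links the KNL1 scaffold to the RZZ complex. Its probe (NM_001005414, chr10:57787351-57787410 in hg18, minus strand) read 7932 in Non-T siRNA and 7184 in SUB1 siRNA cells for siRNA 1, and 7007 and 4042 for siRNA 2. Of the Non-T level, 70.0% (log2 ratio -0.52) and 44.7% (-1.16) was left, with technical SDs of 0.066 and 0.064. Its difference between the siRNAs, -0.65 with a technical SD of 0.092, was the largest among the 10 genes. With median centring in place of loess ZWINT came to -0.85 with siRNA 2, short of 2-fold.

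KNTC1 (ROD) and ZW10 are subunits of the RZZ complex, which recruits dynein and MAD1L1. KNTC1 was the only member with repeated spots, 10 on each array (NM_014708, chr12:121672440-121672990 in hg18, plus strand). Over all its spots the mean signal was 336 and 308 with siRNA 1 and 296 and 214 with siRNA 2. The mean log2 ratio was -0.27 with siRNA 1 (SD 0.063 among 8 spots, from -0.40 to -0.20) and -0.63 with siRNA 2 (SD 0.039 among 7 spots, from -0.71 to -0.59), since 2 and 3 spots were flagged as outliers and left out. The ranges of the spots on the arrays did not overlap. These are repeat spots of 1 hybridisation each, so their SD is technical.

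ZW10 (NM_004724, chr11:113109535-113109594 in hg18, minus strand) had signals of 348 and 305 with siRNA 1 and 315 and 314 with siRNA 2. That is a log2 ratio of -0.30 and then -0.15, with technical SDs of 0.081 and 0.073. ZW10 was nearer to 0 with siRNA 2 than with siRNA 1, and KNTC1 was farther from it. The third subunit, ZWILCH, which is not among the 10 genes and was named after its values were seen, had -0.45 and -0.83, in the order of KNTC1.

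MAD2L1BP, the protein that opposes MAD2L1, had the value nearest to 0 with siRNA 2. Its probe (NM_001003690, chr6:43716137-43716196 in hg18, plus strand) had signals of 1513 and 1506 with siRNA 1 and of 1365 and 1606 with siRNA 2. Normalized log2 ratios were -0.28 and -0.047, of which the latter is within its technical SD of 0.069. Against MAD2L1 itself, which was left at 37.9% and 31.5% of its Non-T level, MAD2L1BP was left at 82.1% and 96.8%.

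All 10 genes were below 0 on both arrays, as were 45.9% and 46.4% of all genes, except that with siRNA 2 MAD2L1BP was above 0 under 3 of the other ways of processing and ZW10 under 1 of them. With siRNA 1, 1 of the 10 (MAD2L1) was at least 2-fold lower, against 0.609% of all 19218 genes. With siRNA 2, 5 of the 10 (MAD2L1, BUB1B, ZWINT, BUB1 and TTK) were at least 2-fold lower, against 1.07% of all genes. With both siRNAs, 1 of the 10 was so, against 0.14% of all genes. None was at least 2-fold higher with either siRNA, against 40 (siRNA 1) and 118 (siRNA 2) of all 19218 genes. These counts depend on the processing, since Feature Extraction's processed signals gave 4 genes lower with siRNA 1 (1.55% of all genes) and median centring in place of loess gave 2 with siRNA 2 (0.526% of all genes). The median log2 ratio of the 10 genes was -0.47 with siRNA 1 and -0.84 with siRNA 2, beside a median of all genes of 0.024 on each array. The 10 genes were chosen with earlier results of these data known, so these counts and shares are descriptions and no test of the list.

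The mean ratio of both siRNAs was tested against 0 for all genes with limma and Benjamini-Hochberg adjustment, which leaves out the spread of the control. No checkpoint gene of the 10 passed an adjusted p of 0.05, and neither did any gene other than SUB1 (0.0052% of genes called lower). SUB1 itself, with an adjusted p of 0.0248, lost its call in 5 other ways of processing (adjusted p 0.0706 to 0.175), each of which called 0 genes. The adjusted p was 0.112 for MAD2L1 (mean -1.53, standard error 0.11), 0.112 for BUB1B (-1.14, 0.13) and 0.112 for BUB1 (-1.02, 0.098). It was 0.113 for TTK (-0.85, 0.13), 0.137 for ZWINT (-0.84, 0.18) and 0.171 for KNTC1 (-0.45, 0.13). BUB3 had 0.147 with probe 3 and MAD1L1 had 0.151. MAD2L1BP had 0.439 and ZW10 had 0.289, the highest of the 10. At an unadjusted p under 0.05, 8 of the 10 genes were lower, against 9.91% of all genes, and the exceptions were MAD2L1BP and ZW10. None of the 10 was higher, against 2109 of all 19218 genes. Since the 10 genes were chosen with earlier results of these data known, these shares too are descriptions only.

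**Figure D3:**
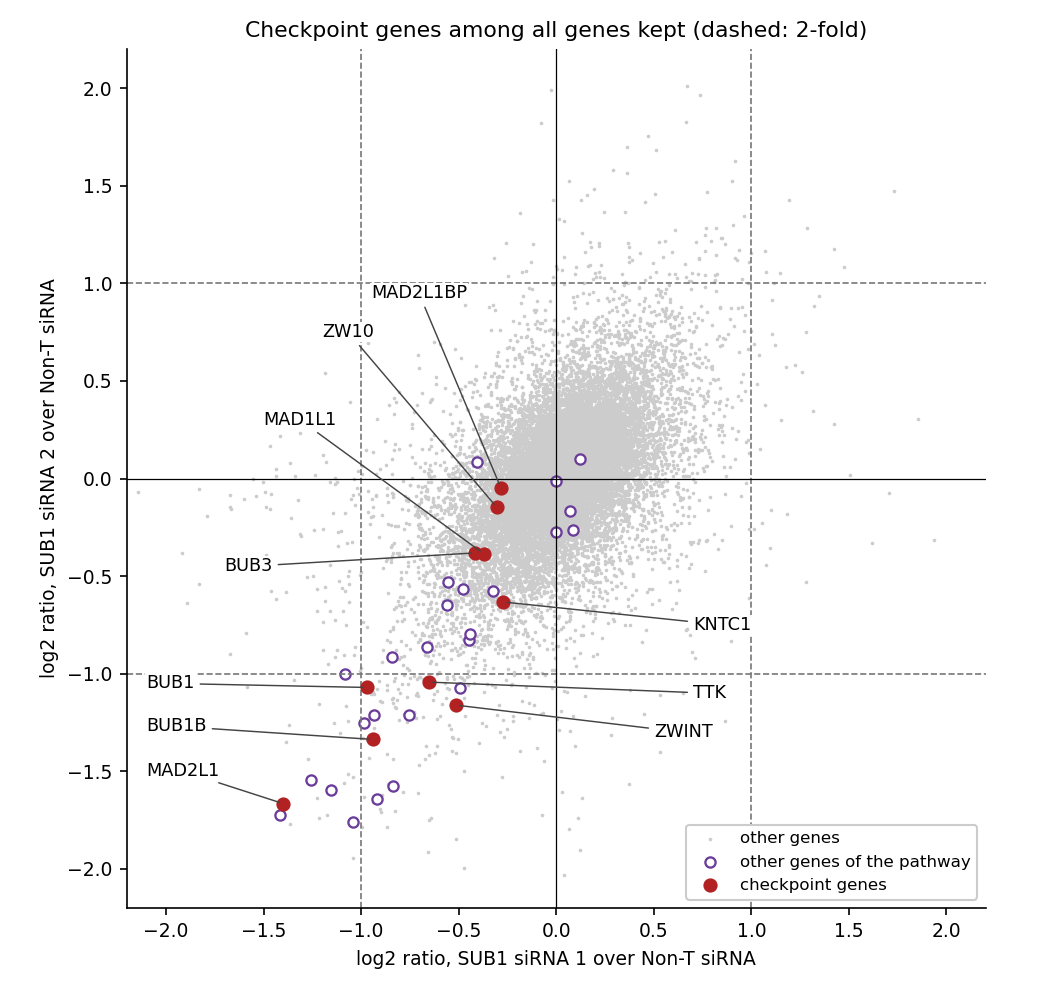
Log2 ratio with SUB1 siRNA 2 (vertical) against that with SUB1 siRNA 1 (horizontal) for the genes kept (grey), the checkpoint genes (red) and the other genes of the pathway (open purple). Dashed lines mark a 2-fold change and 5 of 19218 genes lie outside the axes. MAD2L1 is past 2-fold on both axes, BUB1, BUB1B, TTK and ZWINT are past it on the vertical axis only, and MAD2L1BP and ZW10 lie inside the main cloud.

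The ratio was lower with siRNA 2 than with siRNA 1 for 7 of the 10 genes (50.4% of all genes), with a median difference of -0.18 (-0.0021 over all genes). The difference was negative for ZWINT, BUB1B, TTK, KNTC1 (-0.36), MAD2L1 (-0.27), BUB1 and MAD1L1 (-0.012), and positive for MAD2L1BP (0.24), ZW10 (0.16) and BUB3 (0.034). Differences for BUB1, MAD1L1 and BUB3 were within or about their technical SD. With 1 array for each siRNA the difference between the siRNAs was not tested.

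To compare single channels, a further step (Aquantile in limma) gave both arrays the same distribution of mean log2 intensity. The channel values below depend on this step, which left the ratios unchanged. The shift between the arrays was larger in Cy5 than in Cy3 for 8 of the 10 genes, the exceptions being BUB3 and MAD1L1, and for 13590 of all 19218 genes. The Cy3 signals of the 10 genes, after normalization, differed between the arrays by -0.22 to 0.10 (log2, siRNA 2 array minus siRNA 1 array), with a median of 0.012. Their Cy5 signals differed by -0.61 to 0.32, with a median of -0.23. For ZWINT the Non-T channel differed by 0.039 and the SUB1 siRNA channel by -0.61. For BUB1B the values were -0.038 and -0.44, and for TTK 0.065 and -0.32. MAD2L1 had the largest shift in the Non-T channel, -0.22, beside -0.48 in the SUB1 siRNA channel. Over all genes the SD of these differences was 0.12 in Cy3 and 0.31 in Cy5.

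**Figure D4:**
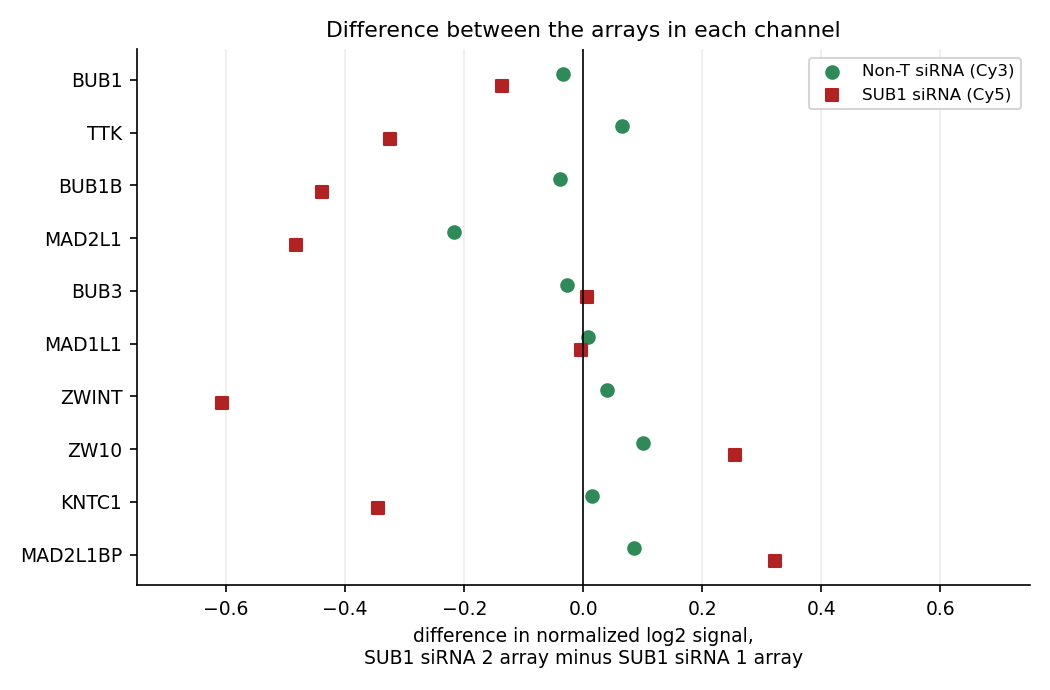
Difference in normalized log2 signal between the arrays (siRNA 2 array minus siRNA 1 array) for each checkpoint gene, in the Non-T siRNA channel (Cy3, green circles) and the SUB1 siRNA channel (Cy5, red squares). Signals were made comparable between the arrays with Aquantile. ZWINT has the largest shift in Cy5, -0.61, with 0.039 in Cy3, and MAD2L1 has the largest shift in Cy3, -0.22.

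The other genes of the pathway were taken from a list of 26, of which 25 were kept and USP44, which opposes release of the checkpoint, was not well above background in either channel. With siRNA 1, 5 of the 25 were at least 2-fold lower (CENPF, NUF2, PLK1, CCNB1 and CDK1), against the 0.609% of all genes. With siRNA 2, against 1.07%, 11 were, namely these 5 and CDC20, SPC24, SPC25, BIRC5, CDCA8 and HASPIN. None was at least 2-fold higher, against 40 (siRNA 1) and 118 (siRNA 2) of all 19218 genes. The count of lower genes with siRNA 1 was 9 with Feature Extraction's processed signals and 1 with median centring, against 1.55% and 0.291% of all genes. With siRNA 2 the count was 16 and 8 in the same order, against 2.47% and 0.526% of all genes. The medians were -0.56 and -0.86. In limma 0 of the 25 passed an adjusted p of 0.05, and 19 were lower at an unadjusted p under 0.05, against 9.91% of all genes. This list was also chosen with earlier results of these data known, so its counts, and those of its groups below, are descriptions only.

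CDC20, the activator of the anaphase-promoting complex that the checkpoint proteins sequester, had signals of 644 and 395 with siRNA 1 and 512 and 251 with siRNA 2. Its log2 ratio was -0.93 and -1.21. Like BUB1B, it was past 2-fold with siRNA 2 and not with siRNA 1.

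Against 0.609% (siRNA 1) and 1.07% (siRNA 2) of all genes, 1 of 4 genes of the RZZ complex and its partners was at least 2-fold lower on each array. This was CENPF, a kinetochore protein of late G2, with -1.26 and -1.55, whose dimmer second probe had -0.59 and -0.54. The KMN network is the microtubule receptor of the kinetochore on which the checkpoint assembles. Against the same shares of all genes, 1 of its 9 genes was at least 2-fold lower with siRNA 1 and 3 were with siRNA 2. These were NUF2 (-1.15 and -1.60), SPC25 (-0.92 and -1.64) and SPC24 (-0.75 and -1.21), subunits of the NDC80 complex. The fourth subunit, NDC80 itself, had -0.56 and -0.65, did not reach 2-fold and was named after its values were seen.

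Of the 10 genes in the group of kinases and centromere proteins, 3 were at least 2-fold lower with siRNA 1 (0.609% of all genes) and 6 with siRNA 2 (1.07%). The group also holds CCNB1 and TPR, which are neither. TPR, named after its values were seen, had -0.0019 and -0.011 by its brightest probe. PLK1, a kinase that works with TTK at the kinetochore, had -1.41 and -1.72, and its dimmer second probe had -0.16 and -0.30. CDK1 and its partner CCNB1 drive entry into mitosis. CDK1 had -1.04 and -1.76, and CCNB1 had -1.08 and -1.002. BIRC5 and CDCA8, of the chromosomal passenger complex, had -0.99 and -1.25, and -0.83 and -1.58. HASPIN, the kinase that helps to place that complex at centromeres, had -0.49 and -1.07.

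Not all of the pathway was lower. With siRNA 1 the ratios of SPDL1 (0.085), NSL1 (0.12) and PMF1 (0.073) were above 0, and with siRNA 2 those of MIS12 (0.085) and NSL1 (0.10) were. NSL1, PMF1 and MIS12 are subunits of the MIS12 complex, which anchors the NDC80 complex to the centromere. These 4 genes were named after their values were seen, because they are the genes of the list above 0. The fourth subunit of that complex, DSN1, likewise named afterwards, had -0.00089 and -0.27.

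**Figure D5:**
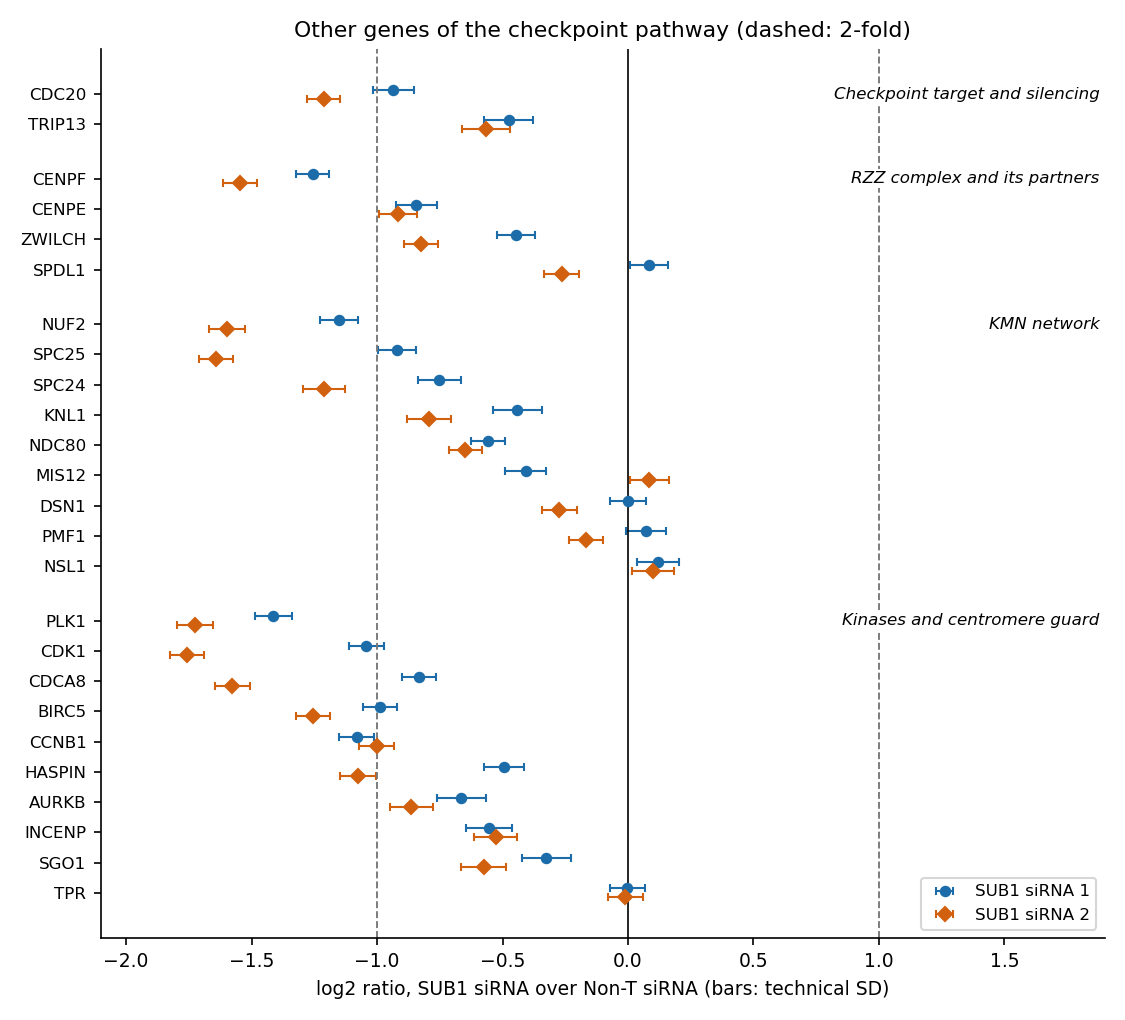
Log2 ratio (SUB1 siRNA to Non-T siRNA) for the 25 other pathway genes measured, by role, with siRNA 1 (blue circles) and siRNA 2 (orange diamonds). Bars are the technical SD among spots and dashed lines mark a 2-fold change. PLK1 lies lowest with siRNA 1 (-1.41) and CDK1 with siRNA 2 (-1.76), whereas NSL1 is above 0 with both (0.12 and 0.10).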

How the data were processed

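The scanner output that the authors deposited (Agilent Feature Extraction 9.5.1.1) holds Cy3 and Cy5 intensity per spot, with local background, flags and hg18 coordinates. The table of log2 ratios that the authors deposited, normalized by loess with agilp per the methods, served as an alternative. Its direction is Cy5 over Cy3 (Pearson correlation across probes of 0.958 and 0.970 with ratios computed here). For this check the ratios were loess ratios of median spot signals without background correction.

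Mean spot signals were corrected by normexp (offset 50) and loess (span 0.3) was applied to the log2 ratios of each array, using R 4.3.3 with limma 3.58.1. For single-channel levels only, mean log2 intensities were made equal in distribution between the arrays (Aquantile), with the ratios unchanged. Control spots and flagged outliers (112 and 100) were left out, and repeat spots averaged. A probe entered (25673 of 41000) if 0.5 or more of its spots exceeded background clearly in either channel, on each array, and the brightest probe stood for its gene. Genes were named through RefSeq (GRCh38.p14) where possible (13129 of 19218), and otherwise by the name in the files. The technical SD is the median SD among spots of the 50 probes nearest in intensity among 209 probes spotted 10 times. A gene was called at an absolute log2 ratio of 1, as in the methods. limma (lmFit, eBayes, Benjamini-Hochberg over all genes) tested the mean of both siRNAs against 0. Named genes were all members, SUB1, CDC20 and pathway genes at least 2-fold changed with either siRNA. SPDL1, NSL1, PMF1, MIS12, DSN1, NDC80, ZWILCH, USP44 and TPR fall outside this rule and were named after their values were seen. The members and the gene lists were chosen with earlier results of these data known. The code was tested on simulated data. Feature Extraction's log10 ratios and p-values were not used. A further list of marker genes is not reported here.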

Additional observations from a re-analysis of the deposited data

Results flagged for a closer look

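MIS12, SPDL1 and PMF1, of the pathway list, had log2 ratios of opposite signs with the SUB1 siRNAs, each by its brightest probe. MIS12, a subunit of the MIS12 complex, had -0.41 with siRNA 1 and 0.085 with siRNA 2, a difference of 0.49. SPDL1, which links the RZZ complex to dynein, had 0.085 and -0.26, a difference of -0.35. PMF1, another subunit of the MIS12 complex, had 0.073 and -0.17, a difference of -0.24. With 1 array for each siRNA these differences were not tested.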

How the results depend on the processing

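Of the alternatives that give 1 value per gene, 6 changed the value of a gene with a single spot, and counts here are over these 6. MAD2L1 stayed at least 2-fold lower with both siRNAs in all 6 (-1.44 to -1.18 with siRNA 1 and -1.75 to -1.45 with siRNA 2), and so did BUB1B with siRNA 2 (-1.60 to -1.17). TTK with siRNA 2 was past 2-fold in 2 of them (-1.64 to -0.93), and BUB1 and ZWINT with siRNA 2 in 5 each. With median centring in place of loess, BUB1 had -0.88 and ZWINT -0.85, and the number of the 10 genes at least 2-fold lower with siRNA 2 was 2, with medians of -0.24 (siRNA 1) and -0.67 (siRNA 2). The pathway list then had 1 gene lower with siRNA 1 and a median of -0.76 with siRNA 2. Median centring moved the median of all genes to 0.13 and 0.12, so that the members' medians minus it were -0.37 and -0.79, and the share of higher among changed genes from 25.5% and 36.5% to 71.0% and 72.5%. That share was 72.3% and 67.7% with Feature Extraction's processed signals and 36.7% and 47.4% in the authors' table. Median centring also put MAD2L1BP (0.20) and ZW10 (0.011) above 0 with siRNA 2. With Feature Extraction's processed signals, 4 of the 10 genes were lower with siRNA 1 (BUB1, BUB1B and TTK besides MAD2L1), the members' median with siRNA 2 was -0.98, and the pathway list had 9 genes lower with siRNA 1 and medians of -0.89 and -1.31. MAD2L1BP with siRNA 2 was then 0.0078, and 0.0086 in the authors' table. Over the 13 probes counted singly, the median with siRNA 2 was -0.63, since BUB3 counts 4 times. Probe 2 of BUB3 in place of probe 3, an alternative chosen after seeing the data, gave a members' median with siRNA 1 of -0.58. In all 14 alternatives 0 of the members passed an adjusted p of 0.05 in limma. The lowest adjusted p lay between 0.0577 and 0.175, and 6 to 8 of the 10 genes were lower at an unadjusted p under 0.05, or 9 of the 13 probes counted singly, with 1 probe higher. Of all genes, or all probes counted singly, 3.94% to 10.78% were lower at that unadjusted p in these alternatives. The 3.94% was with median centring, where 6 of the 10 genes were lower. Of 74 comparisons of counts and medians with an alternative, 62 stayed within 1.5 times the count or within 0.073 of the median. The cause of the others was not tested. Among the 62 are the 14 limma counts, which were 0 throughout. Also among them are comparisons under other filters on dim probes, which left every member's ratio unchanged. Such comparisons say little about how stable the results are. Each ratio already pairs knockdown with control on its array. No paired analysis was possible because the siRNA groups, of 1 array each, have no replicate numbers to block on, and leaving out an array leaves no test. The number of arrays, and for TTK and MAD1L1 a low signal over the local background, limit the precision.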
